A study of Mus musculus with 3 samples.

Results

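Motor proteins that move along microtubules are encoded by 2 large gene families, the dyneins and the kinesins. Their transcripts were described in sorted mouse round spermatids, postmeiotic haploid cells that start to build the sperm tail. Members were chosen by symbol and not by expression value, but with earlier results of these data known. All protein-coding genes of the deposited table starting with Dnah, Dnai, Dnali, Dync or Dynl, or with Dnal or Kif and a digit, were taken. This gave 71 of 15497 protein-coding genes (17946 genes in all): 20 axonemal dynein genes, 16 cytoplasmic dynein genes and 35 kinesin genes. A further 2 genes with such symbols are pseudogenes and were left out.

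The samples were wild-type mice and mice carrying either of 2 alleles of Miwi (Piwil1), a germline Argonaute protein that binds piRNAs. The alleles are named MiwiΔIns and MiwiR371W, the latter named for a change of arginine to tryptophan. All mice were C57BL/6 males of 28 days, and their cells were sorted by fluorescence on the DNA dye Hoechst. Messenger RNA was sequenced from 1 library per genotype. The labels do not state whether the alleles were homozygous, nor how many animals gave cells to a library. Each difference below therefore compares single libraries, has no replicate check and carries no p-value.

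Axonemal dyneins are built into the rows of outer and inner arms of the sperm tail, where they slide neighbouring microtubule doublets and so bend the tail. Cytoplasmic dynein carries cargo towards the minus ends of microtubules, and a related form returns cargo from the tip of a growing axoneme. Most kinesins walk to the plus ends, while others depolymerise microtubules or act in the spindle. In spermatids these motors serve the axoneme, the manchette (the microtubule sleeve around the elongating nucleus) and the trafficking of RNA and protein granules.

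Expression is given as the deposited value, a signal normalised to transcript length and library size whose exact unit (FPKM or TPM) is not given in the sources used here. Values therefore compare genes per unit of length. The table summed to 630809 to 697804 per library, and the low values of long transcripts lay near steps of 0.075 value × kb in wild type, 0.0685 with MiwiΔIns and 0.091 with MiwiR371W, taken as the worth of 1 fragment. By these steps the motor genes rested on between 20 and 43407 fragments each, and the MiwiR371W library was the shallowest. All 10 round spermatid markers were detected, with sums of 16296 in wild type, 22591 with MiwiΔIns and 18337 with MiwiR371W, carried by Prm1, Prm2, Tnp1 and Tnp2. The less abundant markers Acrv1, Spaca1, Catsper1, Izumo1 and Odf1 were lower in MiwiR371W than in wild type, with log2 ratios of −0.25 to −0.63. Tssk6, also less abundant, was higher in MiwiR371W than in wild type, with a log2 ratio of 0.25. Markers of spermatocytes summed to 499, 573 and 556, of spermatogonia to 22.9 to 26.2 and of Sertoli cells to 22.4 to 31.9 (7 of 10 measured). Those of Leydig cells summed to 3.85 to 7.49 (5 of 6 measured) and of macrophages to 9.29 to 16.5 (5 of 7). Of 5 erythroid markers 1 was measured, Alas2, at 0.23 to 0.41. Markers of peritubular and endothelial cells summed to 264, 213 and 167, mostly Actg2. In that list Acta2 (1.01, 2.17 and 5.53) and Vim (1.55, 1.45 and 6.10) passed the size rule given below, as higher in MiwiR371W. Of 6 markers of multiciliated epithelium 2 were analysed, Ccno at 3.26 to 3.52 and Foxj1, also a spermatid gene, at 142, 99.8 and 117.

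Motor genes made up 0.954% of the summed values in wild type, 1.04% with MiwiΔIns and 0.929% with MiwiR371W. Of the 71 members, 64 had a mean of at least 1 over the 3 libraries and 54 a mean of at least 5. The log2 ratio of values x and y was log2((x + 1)/(y + 1)), in which the added 1 shrinks the ratios of low genes. A gene passed the size rule when this ratio was at least 1 in size and the higher value at least 5. In bulk samples, fewer cells of a type and less RNA per cell cannot be told apart.

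Few motor genes passed. In MiwiΔIns against wild type, 0 members were higher and 0 lower, where 0.778% of 7713 protein-coding genes were higher and 0.454% lower. In MiwiR371W against wild type 1 member was higher, Dnah14, and 0 were lower, where 1.15% of 7888 genes were higher and 1.31% lower. In MiwiR371W against MiwiΔIns 0 members were higher and 2 lower, Dynlt3 and Kif5c, where 1.03% of 7895 genes were higher and 2.25% lower. Each count of members, out of 54 with at least 5 in either library compared, was near the share of all genes under the same filter. The rule's edge fell between Dnah14 (1.11) and Kif23 (0.92) in MiwiR371W against wild type, and between Kif5c (−1.05) and Dnah7c (0.76) in MiwiR371W against MiwiΔIns. In MiwiΔIns against wild type the nearest member below it was Dynlt3 (0.84).

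The splits of higher and lower genes over all protein-coding genes depended on the scaling. They were 60 and 35 in MiwiΔIns against wild type as deposited, 41 and 43 with equal sums, 48 and 41 with equal upper quartiles, and 36 and 36 once the trend with GC and length was taken out. In MiwiR371W against wild type they were 91 and 103 as deposited, 74 and 133 with equal medians, and 108 and 86 with equal sums. In MiwiR371W against MiwiΔIns they were 81 and 178 as deposited, 129 and 106 with equal sums, and 78 and 117 with the trend removed. Equal sums also moved the median of all genes in this last comparison from 0.04 to 0.17.

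The 3 classes of motor genes had different medians. Axonemal dynein genes had a median log2 ratio of 0.05 in MiwiΔIns and 0.32 in MiwiR371W, each against wild type. Cytoplasmic dynein genes had 0.13 and −0.17. Kinesin genes had 0.02 and 0.13. The median over protein-coding genes with a mean of at least 1 was 0.02 and 0.05, so the axonemal class lay highest in MiwiR371W. Of the 16 cytoplasmic genes, the 9 light chains that axonemal dyneins share had a median of −0.23 there and the 7 Dync genes one of 0.14. Both comparisons use the same wild-type library. Between the mutants (MiwiR371W to MiwiΔIns) the medians were 0.25, −0.31 and 0.16, beside 0.04 for all genes. The axonemal and kinesin medians of MiwiΔIns turned below 0 under equal sums (−0.053 and −0.08), equal medians (values just under 0 and −0.03) and equal upper quartiles (−0.02 and −0.04). The median of all protein-coding genes with a mean of at least 1 also turned below 0 there, to −0.075, −0.033 and −0.044.

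Of the 64 members with a mean of at least 1, 40 (62.5%) had a log2 ratio above 0 in MiwiΔIns against wild type, where 52.2% of 11031 genes did. There were 40 such members (62.5%) in MiwiR371W against wild type, beside 55.1% of genes, and 41 (64.1%) in MiwiR371W against MiwiΔIns, beside 54.1%. The members' shares were above those of all genes in each comparison, and the difference was not tested.

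Outer arm heavy chains, the motor subunits of the arms that set beat frequency, showed a sperm type and a cilium type. Dnah8, a heavy chain of the sperm tail's outer arm, was at 124 in wild type, 161 with MiwiΔIns and 192 with MiwiR371W. Its partner Dnah17 was at 84.5, 87.4 and 109. Both were lowest in wild type and highest in MiwiR371W, with log2 ratios to wild type of 0.37 and 0.62 for Dnah8 and of 0.05 and 0.36 for Dnah17. The heavy chains known from airway and nodal cilia were low in each library: Dnah9 was at 3.44, 2.34 and 2.74, Dnah5 at 0.87, 0.81 and 0.64, and Dnah11 at 0.31, 0.45 and 0.34. Within a library, Dnah8 was 143 to 299.5 times as high as its outer arm paralogue Dnah5, with which it shared 65.8% of coding bases. Dnah17 was 24.6 to 39.8 times as high as Dnah9.

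Inner arm heavy chains, which shape the waveform, were nearly all highest in MiwiR371W. Of these 9 genes, 8 had a positive log2 ratio to wild type there, with a median of 0.56, beside 8 and 0.15 in MiwiΔIns. Dnah2, one of the pair of heavy chains of inner arm dynein f, was at 22.7 in wild type, 25.3 with MiwiΔIns and 40.6 with MiwiR371W (log2 ratios 0.15 and 0.81). Its partner Dnah10 was at 33.5, 34.8 and 41.7 (0.06 and 0.31). The difference from wild type was thus larger for Dnah2 than for its partner.

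Dnah12 was the most abundant inner arm heavy chain, at 47.2 in wild type, 53.9 with MiwiΔIns and 74.7 with MiwiR371W (0.19 and 0.65). Dnah1, whose loss in men gives short or irregular sperm tails, was at 30.5, 30.8 and 45.4 (0.01 and 0.56), and Dnah6 at 27.1, 30.3 and 42.2 (0.16 and 0.62). In all 3 the wild-type and MiwiΔIns values were close and MiwiR371W stood above them. Dnah3 was the exception, at 45.8, 46.2 and 39.9, lowest in MiwiR371W (−0.19). Its exons overlap Lyrm1 on the opposite strand, which was at a like level of 34.4, 64.2 and 42.1, so reads of the pair may not be separated.

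Dnah7 exists as 3 near-identical copies in the mouse, whose coding sequences shared 95.9% to 96.9% of their bases, so the division of reads between them is uncertain. Dnah7a was at 14.7, 18.8 and 20.9, Dnah7b at 15.5, 20.0 and 25.6, and Dnah7c at 7.41, 5.22 and 9.56. Dnah7c was lowest in MiwiΔIns (log2 ratio −0.44), where the other copies were above wild type. Summed, the copies were at 37.6, 44.0 and 56.0, with log2 ratios of 0.22 and 0.56 to wild type.

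Dnah14 (ENSMUSG00000047369.8, GRCm38 chromosome 1, 181576559 to 181815774, plus strand), a heavy chain given no arm here, was at 22.1 in wild type, 30.3 with MiwiΔIns and 49.0 with MiwiR371W. Its value was lowest in wild type and highest in MiwiR371W, with log2 ratios of 0.44 and 1.11 to wild type. Some 3954, 5929 and 7188 fragments were estimated behind these values, and counting error alone gave the second ratio an SD of 0.03. The ratio was 0.99 with a pseudocount of 5 and 0.97 once the trend with GC and length was taken out, both short of the rule. Exons of Dnah14 overlap Lbr on the opposite strand, which was at 0.94, 0.64 and 1.76, and whether the counting used strand is not stated. The bases before its start, shown because it was the only member past the rule against wild type, hold none of the 4 motifs searched below (RefSeq GRCm38.p6, chr1:181576343-181576558, plus strand, all in lower case for that reason).
Dnah14: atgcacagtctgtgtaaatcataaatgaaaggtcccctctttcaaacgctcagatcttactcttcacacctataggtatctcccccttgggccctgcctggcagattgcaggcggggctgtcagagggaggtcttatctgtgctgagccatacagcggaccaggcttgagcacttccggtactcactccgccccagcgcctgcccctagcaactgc

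Taken over all 15 axonemal heavy chains, 12 had a positive log2 ratio in MiwiR371W to wild type, with a median of 0.48, and 12 in MiwiΔIns, with a median of 0.15. Among the 12 with a mean of at least 5, the medians were 0.59 in MiwiR371W (11 positive) and 0.15 in MiwiΔIns (11 positive, but 7 with equal sums, medians or upper quartiles). Between the mutants the median of these 12 was 0.40, with 11 positive.

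The smaller axonemal chains did not follow the heavy chains. Outer arm intermediate chain Dnaic1 was at 94.4 in wild type, 89.9 with MiwiΔIns and 88.4 with MiwiR371W. The other intermediate chain, Dnaic2, was at 90.2, 70.2 and 111, lowest in MiwiΔIns (log2 ratio −0.36) and highest in MiwiR371W (0.29). Dnal4, an outer arm light chain, was at 109, 110 and 109. Dnal1, the light chain that binds a heavy chain's motor domain, was at 28.6, 32.8 and 28.4, and the inner arm chain Dnali1 at 175, 160 and 170. Over these 5 genes the median log2 ratio was −0.07 in MiwiΔIns and −0.01 in MiwiR371W. Exons of Dnali1 overlap Gnl2 on the opposite strand, which was at 13.1, 22.3 and 21.2. Those of Dnal1 overlap Pnma1 on the opposite strand, at 18.7, 13.9 and 22.2, so reads of that pair may not be separated.

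**Figure D1:**
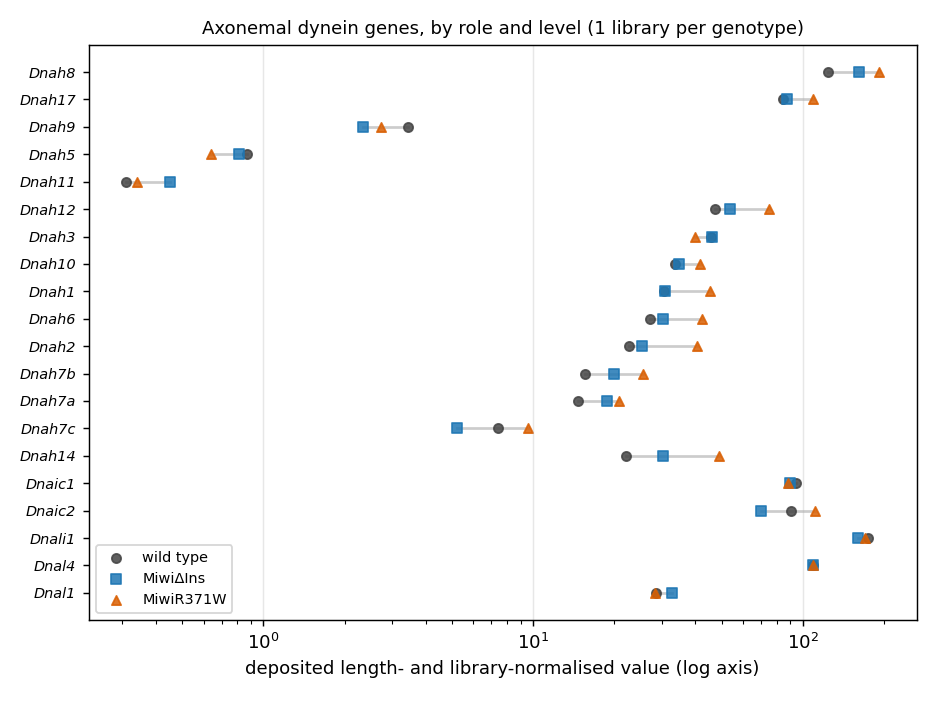
Deposited values (log axis) of the 20 axonemal dynein genes in the wild-type (grey circle), MiwiΔIns (blue square) and MiwiR371W (orange triangle) libraries, 1 library each, with a line joining a gene's lowest and highest value. Most heavy chains from Dnah8 to Dnah14 have their triangle to the right, while Dnaic1, Dnali1, Dnal4 and Dnal1 have all 3 symbols close together.

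Heavy chain transcripts are among the longest in the cell, so their ratios were set beside other genes of like length. Between libraries, log2 ratios over 10941 protein-coding genes varied with transcript length (Spearman rho −0.14 in MiwiΔIns and 0.13 in MiwiR371W against wild type) and with GC content (−0.37 and −0.16). These are descriptions across genes, which are not independent, and the trend removed below covers both. Transcripts up to 1000 nt had a median log2 ratio of 0.20 in MiwiΔIns and −0.11 in MiwiR371W (1039 genes). There were 118 other genes with transcripts over 10000 nt and a mean of at least 5. In MiwiR371W they had a median of 0.17 with quartiles of −0.08 and 0.39, and 66.9% were positive. The 14 motor genes of that length and level, the 12 heavy chains of the axoneme with Dync1h1 and Dync2h1, had a median of 0.53, with 13 positive and 9 above the upper quartile of the others. In MiwiΔIns the long motor genes had a median of 0.12, beside 0.07 for other long genes, with 4 above their upper quartile. After the GC and length trend over all genes was subtracted, the median of the 12 axonemal heavy chains was 0.51 in MiwiR371W and 0.20 in MiwiΔIns.

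**Figure D2:**
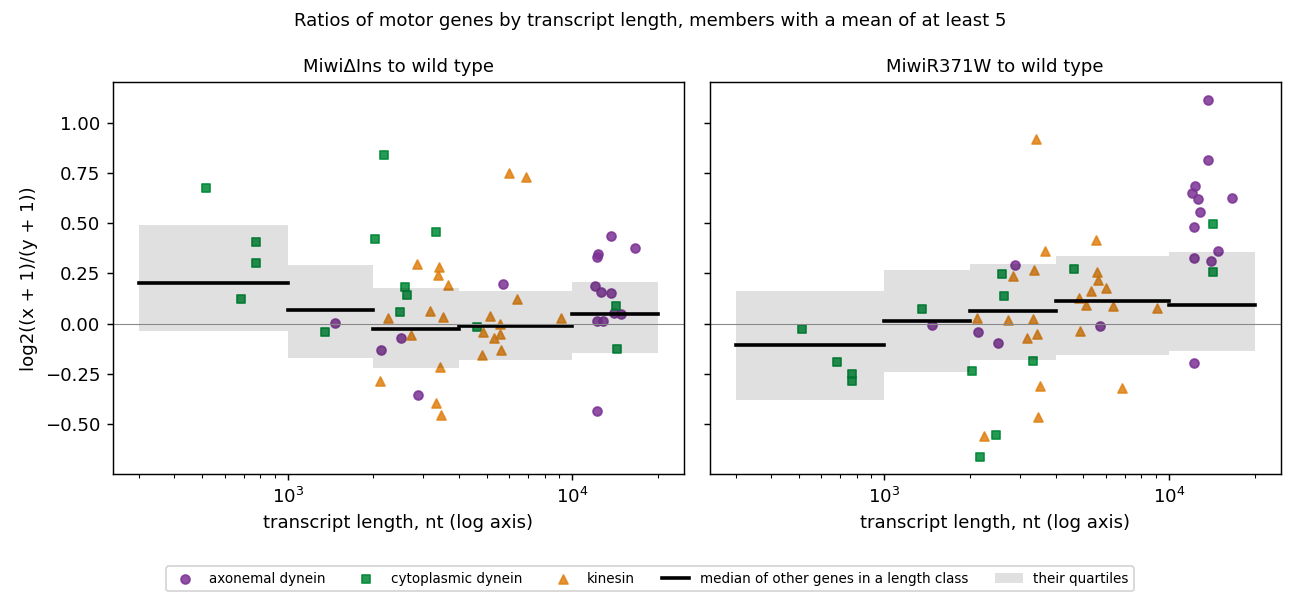
Log2 ratios to wild type (vertical axis) of the 54 motor genes with a mean of at least 5 against transcript length in nt (horizontal log axis), for MiwiΔIns on the left and MiwiR371W on the right. Black lines and grey boxes give the median and quartiles of the other protein-coding genes with a mean of at least 1 in 5 length classes; at right, 9 of the 14 motor genes over 10000 nt lie above 0.39, the upper quartile of other long genes with a mean of at least 5.

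Cytoplasmic dynein 1, the general minus-end motor, was headed by its heavy chain Dync1h1, at 120 in wild type, 110 with MiwiΔIns and 143 with MiwiR371W. Its log2 ratio to wild type was −0.12 in MiwiΔIns and 0.26 in MiwiR371W. The subunits that link the heavy chain to cargo were expressed mainly from 1 of 2 paralogues. Intermediate chain Dync1i2 was at 52.3, 57.8 and 57.5, and Dync1i1, known mainly from neurons, at 1.41, 1.43 and 0.97. Light intermediate chain Dync1li2 was at 23.9, 23.6 and 29.0, and Dync1li1 at 2.37, 2.12 and 2.04. The abundant paralogue was thus 37.1 to 59.3 times as high as the other for the intermediate chains and 10.1 to 14.2 times for the light intermediate chains.

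Cytoplasmic dynein 2, the retrograde motor of intraflagellar transport, was lower. Dync2h1, its heavy chain, was at 23.5 in wild type, 25.1 with MiwiΔIns and 33.6 with MiwiR371W (log2 ratios 0.09 and 0.49). Dync2li1, its light intermediate chain, was at 24.2, 23.4 and 25.5. Over the 7 Dync genes the median log2 ratio was −0.02 in MiwiΔIns and 0.14 in MiwiR371W.

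The dynein light chains, small subunits that cytoplasmic and axonemal dyneins share, went in opposite directions in the mutant libraries. All 9 had a positive log2 ratio in MiwiΔIns to wild type (8 with equal sums, equal upper quartiles or the trend removed), with a median of 0.41. In MiwiR371W, 8 of 9 were negative (7 with equal sums or the trend removed), with a median of −0.23. Between the mutants the median was −0.64. These counts take the 4 near-identical Dynlt1 copies described below as separate members. Summed, those copies had log2 ratios of 0.39, −0.24 and −0.63 in the same comparisons. Once the trend was taken out, the medians of all 9 were 0.18, −0.17 and −0.27. The light chains then differed by annotated length, on which the removed trend itself depends. As deposited, the short Dynlt1b and Dynlt1f had −0.66 and −0.59 between the mutants, and the longer Dynlt1a and Dynll1 −0.64 and −0.66. Dynlt1b, Dynlt1f, Dynlrb1 and Dynlrb2 have transcripts of 515 to 771 nt, and other transcripts up to 1000 nt had the same directions, as given above. Their ratios between the mutants lay between −0.70 and −0.31 as deposited and between −0.27 and 0.10 after removal. Dynlt1a, Dynlt1c, Dynlt3, Dynll1 and Dynll2 have 2030 to 3321 nt, a range in which other genes had medians of −0.02 in MiwiΔIns and 0.06 in MiwiR371W. Of these 5, Dynlt1c was at 0.06 and 0.07 between the mutants, and the other 4 lay between −1.50 and −0.61 as deposited and between −1.45 and −0.63 after removal. Of the 9, 1 was positive between the mutants as deposited (Dynlt1c) and 2 after removal (Dynlt1c and Dynlrb1). Those 2 are left out by a cutoff at a mean of 10, which was not set in advance. The other 7 had a median of −0.66 between the mutants, and −0.63 after removal.

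Dynll1, a small hub protein of the LC8 type that binds many partners, was at 210 in wild type, 282 with MiwiΔIns and 178 with MiwiR371W (log2 ratios 0.42 and −0.23). Its paralogue Dynll2, with 81.5% of coding bases in common, was at 37.8, 39.4 and 25.5 (0.06 and −0.55). Dynll1 was highest in MiwiΔIns, while Dynll2 was near wild type there, and both were lowest in MiwiR371W. Among the roadblock-type chains, the ciliary form Dynlrb2 was at 227, 364 and 223 (0.68 and −0.03), so MiwiΔIns stood above the other libraries. With the trend removed its ratios to wild type were 0.31 and 0.12, in a transcript of 515 nt. The general form Dynlrb1 was at 6.44, 7.09 and 5.53. Its ratio between the mutants was −0.31 as deposited and 0.10 with the trend removed, on an estimated 20 to 40 fragments per library.

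Tctex1-type light chains included the most abundant motor transcripts. Dynlt1b was at 1229 in wild type, 1628 with MiwiΔIns and 1031 with MiwiR371W, Dynlt1a at 717, 984 and 630, and Dynlt1f at 638, 787 and 524. Dynlt1c was far lower, at 7.81, 9.01 and 9.46. The coding sequences of Dynlt1a, Dynlt1c and Dynlt1f are identical over 339 nt and that of Dynlt1b differs from them by 1 nt, so the split between copies rests on their untranslated ends and is uncertain. Their sum was 2592, 3408 and 2195, highest in MiwiΔIns and lowest in MiwiR371W, with log2 ratios to wild type of 0.39 and −0.24. The annotated transcript of Dynlt1a has 3321 nt against 771 nt for Dynlt1b and Dynlt1f, so its level per length depends on the transcript the authors used. Exons of Dynlt1a also overlap Tmem181a on the opposite strand, at 3.72, 5.46 and 7.33.

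Per unit of length, Dynlt1f was 55.4 to 87.3 times as high as Dynlt1c within a library. Their annotated transcripts have 771 and 2589 nt, so this fold also depends on the transcripts the authors used. Since their coding sequences do not differ, upstream bases outside annotated exons are shown aligned (97.9% identity, RefSeq GRCm38.p6). Capitals mark the 3 positions that differ in 142 bases. The Dynlt1c stretch ends 108 bases before the start, and the Dynlt1f stretch is the part of its upstream window that aligned to it. Dynlt1c lies at chr17:6601529-6601670 on the plus strand and Dynlt1f at chr17:6655940-6656081 on the minus strand.
Dynlt1c: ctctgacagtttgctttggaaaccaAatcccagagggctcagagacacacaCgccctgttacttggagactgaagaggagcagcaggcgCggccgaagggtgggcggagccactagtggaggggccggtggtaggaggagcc
Dynlt1f: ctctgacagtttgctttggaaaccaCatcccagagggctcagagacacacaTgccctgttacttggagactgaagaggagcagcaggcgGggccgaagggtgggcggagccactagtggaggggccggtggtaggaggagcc

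Dynlt3 (ENSMUSG00000031176.2, chromosome X, 9654267 to 9663003, minus strand), the X-linked Tctex1-type paralogue with 65.3% to 65.5% of coding bases in common with Dynlt1, was at 14.6 in wild type, 26.9 with MiwiΔIns and 8.84 with MiwiR371W. The 3 libraries were well apart, with MiwiΔIns highest and MiwiR371W lowest. Log2 ratios were 0.84 in MiwiΔIns and −0.66 in MiwiR371W against wild type, and −1.50 between the mutants, the largest of any member. An estimated 364, 735 and 177 fragments lay behind the values, and counting error alone gave the last ratio an SD of 0.12. This call was kept under each alternative run, at −1.45 with the trend removed. Within a library Dynlt1b was 84.4 times as high as Dynlt3 in wild type, 60.6 times in MiwiΔIns and 117 times in MiwiR371W. The bases before its start, shown as those of the member that differed most, also hold none of the motifs searched (RefSeq GRCm38.p6, chrX:9663004-9663233, minus strand).
Dynlt3: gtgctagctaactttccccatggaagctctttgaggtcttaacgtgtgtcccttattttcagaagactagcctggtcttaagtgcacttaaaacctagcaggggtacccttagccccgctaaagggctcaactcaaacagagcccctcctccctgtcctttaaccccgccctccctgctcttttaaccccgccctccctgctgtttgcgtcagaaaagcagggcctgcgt

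**Figure D3:**
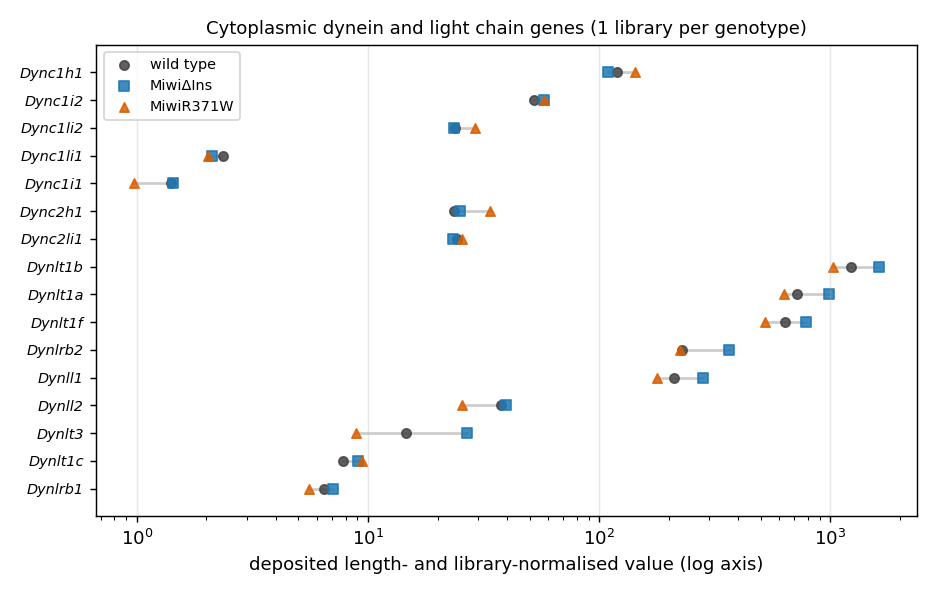
Deposited values (log axis) of the 16 cytoplasmic dynein and light chain genes in wild type (grey circle), MiwiΔIns (blue square) and MiwiR371W (orange triangle), 1 library each. From Dynlt1b down to Dynlt3 the square lies to the right and the triangle to the left of the other symbols, as for Dynlt3 at 26.9 and 8.84, while the Dync genes above them have no such order.

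Among kinesins, the kinesin-2 group drives anterograde intraflagellar transport. Kif3a and Kif3b, which form a heterotrimer needed to build the sperm tail, were at 68.4 and 94.9 in wild type. With MiwiΔIns they were at 71.5 and 86.6, and with MiwiR371W at 65.1 and 111. Kif3b was 1.21 to 1.70 times as high as Kif3a. Their log2 ratios to wild type stayed between −0.13 and 0.22.

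Kif17 (ENSMUSG00000028758.6, chromosome 4, 138250435 to 138301967, plus strand) encodes a homodimeric kinesin-2. In mouse spermatids its KIF17b form is known to carry ACT, the coactivator of the transcription factor CREM, out of the nucleus, and to occur with MIWI in the chromatoid body. It was at 238 in wild type, 173 with MiwiΔIns and 172 with MiwiR371W. Both mutant libraries were below the shared wild-type library, with log2 ratios of −0.45 and −0.47, and differed from each other by −0.01. Neither ratio reached the size rule. With the trend taken out they were −0.14 and −0.40, so the MiwiΔIns value moved most, in a transcript with 60.1% GC. Exons of Kif17 overlap Sh2d5 on the same strand, at 0.26, 0.30 and 0.57.

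The upstream bases of Kif17 are shown because they hold the full cAMP response element TGACGTCA, which CREM binds, in capitals with its first base 86 before the RefSeq start. A second stretch in capitals, GTTGCC, part of the X-box bound by RFX factors, begins 73 bases before the start (RefSeq GRCm38.p6, chr4:138262001-138262231, plus strand). The window lies inside the GENCODE gene, which starts further upstream.
Kif17: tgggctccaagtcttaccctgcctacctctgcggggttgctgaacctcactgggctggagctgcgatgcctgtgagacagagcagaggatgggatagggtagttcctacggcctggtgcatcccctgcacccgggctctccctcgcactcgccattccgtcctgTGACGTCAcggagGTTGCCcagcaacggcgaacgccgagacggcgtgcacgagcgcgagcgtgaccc

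Kinesin-13 members depolymerise microtubule ends. Kif2b was the most abundant kinesin, at 565 in wild type, 576 with MiwiΔIns and 384 with MiwiR371W. MiwiR371W was lower than both other libraries, with a log2 ratio of −0.56 to wild type. Kif2a was at 188, 179 and 210, and Kif2c at 124, 153 and 146, so the order of the libraries differed among the 3. Kif2b was 3.01 times as high as Kif2a in wild type, 3.22 times in MiwiΔIns and 1.83 times in MiwiR371W. Kif24, which acts at centrioles, was at 10.5, 10.1 and 12.7.

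Kinesins of the axoneme and of ciliary signalling differed little. Kif9, a kinesin-9 of the sperm axoneme, was at 203 in wild type, 194 with MiwiΔIns and 205 with MiwiR371W, and its relative Kif6 at 5.80, 5.96 and 4.48. Kif27, a kinesin-4, was at 127, 131 and 136, Kif21b at 10.8, 11.1 and 11.5, and Kif7, a regulator of Hedgehog signalling at cilium tips, at 2.04, 1.73 and 2.47. Kif19a, which limits cilium length, was at 6.70, 5.63 and 6.43. None of these had a log2 ratio past 0.35 in size in any comparison.

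Kinesin-1 and kinesin-3 motors carry organelles and vesicles. Kif5c (ENSMUSG00000026764.9, chromosome 2, 49619298 to 49774778, plus strand), a kinesin-1 heavy chain, was at 12.5 in wild type, 21.4 with MiwiΔIns and 9.84 with MiwiR371W. MiwiΔIns was highest, with log2 ratios of 0.73 in MiwiΔIns and −0.32 in MiwiR371W to wild type and of −1.05 between the mutants. Counting error alone gave the last an SD of 0.06. It missed the rule with a pseudocount of 5 (−0.83) and with equal sums (−0.91). The other kinesin-1 heavy chains were low, Kif5b at 1.72, 1.44 and 1.68 and Kif5a at 0.32, 0.24 and 0.70.

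The upstream bases of Kif5c are shown because they hold the same element TGACGTCA, in capitals, with its first base 26 before the start (RefSeq GRCm38.p6, chr2:49619036-49619285, plus strand). They also hold TTTATA, the other strand of the motif TATAAA searched below, which is left in lower case.
Kif5c: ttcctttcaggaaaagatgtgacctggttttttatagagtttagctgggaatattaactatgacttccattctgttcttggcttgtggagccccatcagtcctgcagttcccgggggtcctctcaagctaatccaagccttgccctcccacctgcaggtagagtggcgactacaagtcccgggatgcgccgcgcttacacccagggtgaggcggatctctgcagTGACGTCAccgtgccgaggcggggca

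Kif1b, a kinesin-3 that carries mitochondria and vesicle precursors, was at 34.5 in wild type, 58.7 with MiwiΔIns and 39.2 with MiwiR371W. It was highest in MiwiΔIns, with log2 ratios of 0.75 and 0.18 to wild type and of −0.57 between the mutants. Kif16b, which moves endosomes, was at 17.5, 19.2 and 18.7. Kif1a, known from axons, was at 2.48, 3.07 and 4.33 (0.23 and 0.62). The remaining kinesin-3 genes Kif13a, Kif13b, Kif14 and Kif1c lay between 0.27 and 2.94.

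Kinesins of the spindle and of cytokinesis spanned a wide range of levels. Kif23, the kinesin of centralspindlin and of the intercellular bridges that join spermatids, was at 16.2 in wild type, 19.8 with MiwiΔIns and 31.4 with MiwiR371W (log2 ratios 0.28 and 0.92). Kif20a was at 41.0, 46.9 and 52.8 (0.19 and 0.36), and Kif20b at 5.97, 5.97 and 8.30 (0.42 in MiwiR371W). Kif18a, which holds chromosomes at the spindle equator, was at 13.6, 16.2 and 16.5, and Kif18b at 42.3, 31.9 and 43.0, lowest in MiwiΔIns (−0.40). The spindle kinesin Kif11 was at 6.70, 5.91 and 7.41, Kif15 at 6.93, 6.71 and 6.73, the chromokinesin Kif22 at 11.9, 9.54 and 12.1, and Kif4 at 1.04, 0.85 and 1.87.

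Spermatocytes are dividing cells that a sort by Hoechst could also hold. Their 10 markers summed to 499 in wild type, 573 with MiwiΔIns and 556 with MiwiR371W, mostly from Syce1 at 355, 413 and 384. The other 9 markers summed to 145, 160 and 172, highest in MiwiR371W. Their log2 ratios to wild type there ranged from −0.11 for Spo11 to 0.73 for Piwil2. Sycp2 had 0.59, Sycp1 0.13 and Sycp3 −0.01. Their part in the ratios of these kinesins was not tested.

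**Figure D4:**
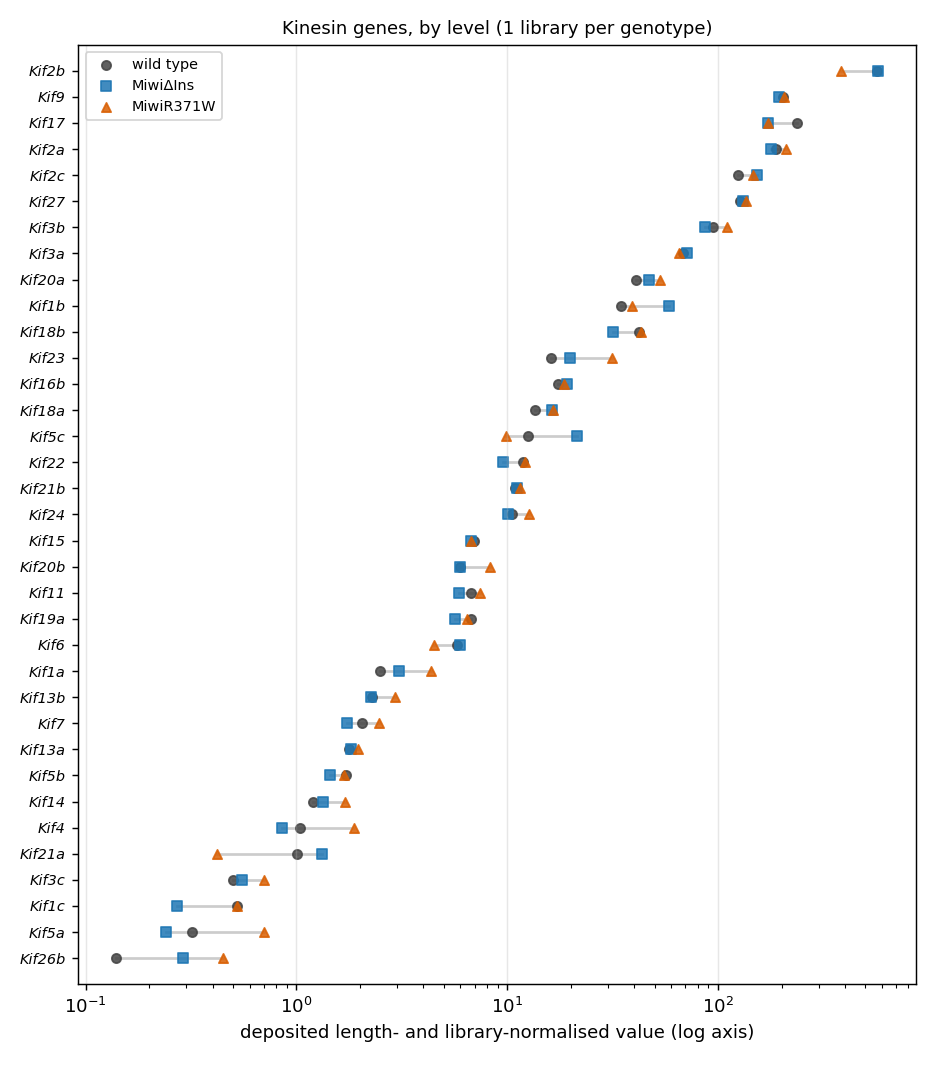
Deposited values (log axis) of the 35 kinesin genes, ordered by mean, in wild type (grey circle), MiwiΔIns (blue square) and MiwiR371W (orange triangle), 1 library each. Kif2b stands apart in MiwiR371W at 384, Kif17 in wild type at 238, Kif1b and Kif5c in MiwiΔIns at 58.7 and 21.4, and Kif23 in MiwiR371W at 31.4.

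At the low end, 7 members had a mean under 1 (Dnah5, Dnah11, Kif1c, Kif3c, Kif5a, Kif21a and Kif26b), with values between 0.14 and 1.32. An estimated 21 to 181 fragments lay behind each of these values. They enter the medians of their classes, and Dnah5 and Dnah11 the counts over all 15 axonemal heavy chains.

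Promoter sequences of 300 bases in RefSeq (250 before and 50 after the start) matched 59 of the 71 members, in 65 windows. On both strands, TGACGTCA occurred in 4 of these windows (6.15%), those of Dnah6, Kif17, Kif18a and Kif5c, and in 1.79% of all 32851 windows. GTTGCC occurred in 22 windows of 20 members (33.8%), among them Dnah10, the Dnah7 copies, Dnaic2, Dync2h1, Dynlrb2, Kif3a, Kif9 and Kif17, and in 12.5% of all windows. CCAAT occurred in 41.5% of the members' windows and 37.4% of all, and TATAAA in 9.23% and 13.6%. These are matches of letters, and they do not show binding. The 4 genes with TGACGTCA did not share an order of the libraries: Kif17 was highest in wild type, Kif5c in MiwiΔIns, and Dnah6 and Kif18a in MiwiR371W.

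Genes that work with the motors were set beside them in 7 lists. Dynein subunits under other symbols (9 measured of 10) had a median log2 ratio of 0.15 in MiwiΔIns and 0.13 in MiwiR371W to wild type, with Tcte3, a Tctex1-type light chain, at 213, 308 and 247 and Tctex1d1 at 149, 164 and 102. A list of docking, ruler and related axonemal proteins (10 measured) had 0.02 and −0.01. In it Ccdc65 was at 360, 366 and 332 and Ccdc63 at 343, 318 and 263. The cytoplasmic factors that assemble dynein arms (16 measured) had −0.13 and 0.07, with Dnaaf1 at 641, 530 and 549 and 1110004E09Rik at 209, 230 and 221. None of the members of these 3 lists passed the size rule. The docking and ruler list went both ways in MiwiR371W. Chosen after their values were seen, the ruler proteins Ccdc39 and Ccdc40 had log2 ratios to wild type of 0.46 and 0.50 and Drc1 0.45, while Ccdc63 had −0.38 and the docking protein Ccdc114 −0.43.

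Dynactin, the complex that couples cytoplasmic dynein to cargo (12 subunits measured), had medians of 0.08 and 0.13. Its capping subunit Capza2 was the only companion gene past the rule, at 4.08 in wild type, 12.8 with MiwiΔIns and 6.05 with MiwiR371W (log2 ratio 1.45 in MiwiΔIns). Dynein regulators and adaptors (13 measured of 16) had −0.02 and 0.02, with Hook1, needed for normal manchette position in the mouse, at 222, 251 and 226 and Pafah1b1 (LIS1) at 170, 168 and 164. Kinesin light chains and adaptors (8 measured) had −0.14 and 0.03, with Kifap3, the third subunit of the Kif3a and Kif3b motor, at 103, 125 and 97.7 and the light chain Klc2 at 51.9, 41.5 and 52.5. Minus-end kinesins of the Kifc group (4 measured) had −0.20 and 0.02, with Kifc3 at 25.6, 22.6 and 29.1 and Kifc1 at 3.47, 2.01 and 3.06.

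**Figure D5:**
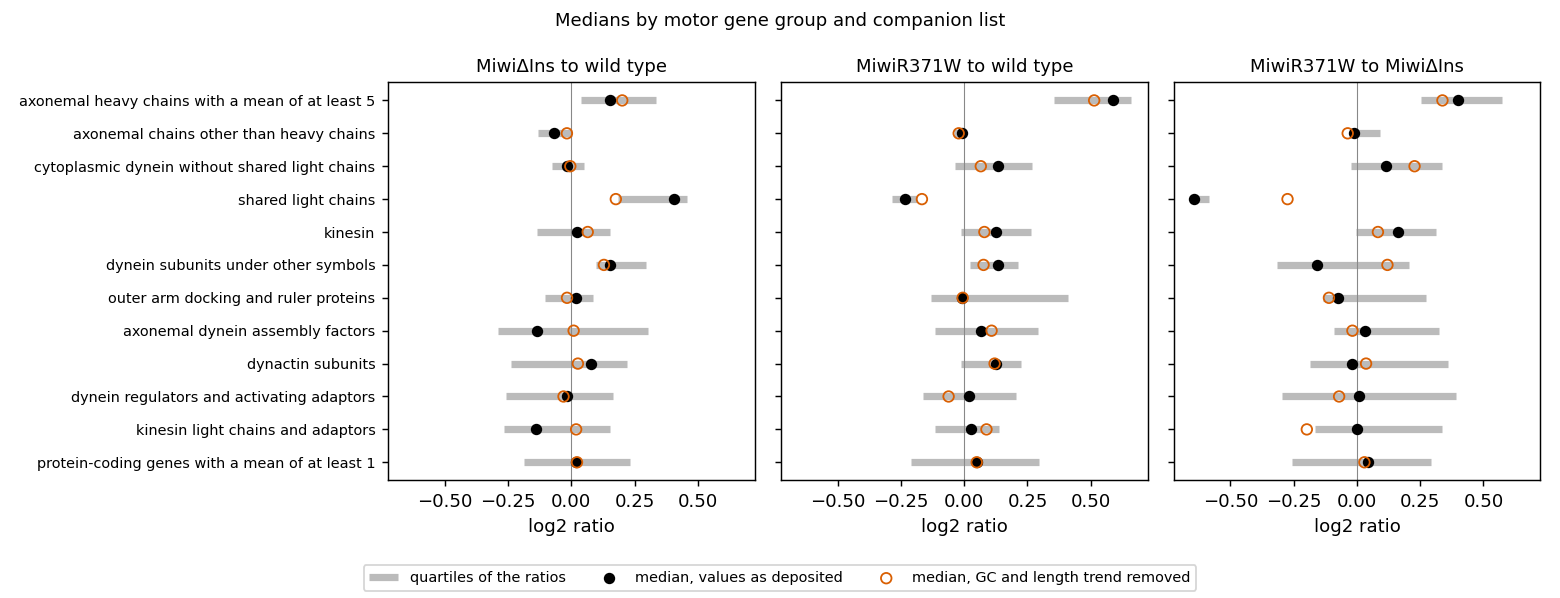
Median log2 ratios (black points) with quartiles (grey bars) of the motor gene groups, 6 companion lists and all protein-coding genes with a mean of at least 1, for MiwiΔIns to wild type, MiwiR371W to wild type and MiwiR371W to MiwiΔIns; open orange circles give the medians after removal of the trend with GC and length. The axonemal heavy chains with a mean of at least 5 lie at 0.59 in the middle panel and the 9 shared light chains at −0.64 in the right panel. The latter median is −0.27 with the trend removed, where light chains of 515 to 771 nt lie between −0.27 and 0.10 and 4 of the 5 longer ones between −1.45 and −0.63.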

How the data were processed

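Messenger RNA of sorted round spermatids was measured in 1 library per genotype. The authors deposited a single table with a column per library, which holds a signal scaled for library size and transcript length. Per the submitters' processing notes, the tools included RSEM, STAR and Trim Galore 0.5.0, and the genome was mm10 (GRCm38). For the unit (FPKM or TPM), the gene annotation and the use of strand, the answer is not given in the sources used here. Every gene had a value above 0, with a lowest value of 0.01, and 0 columns belonged to other samples. The design had assumed TPM or FPKM, and the same rules served for the deposited signal.

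The members and gene lists were chosen with earlier results of these data known. With 1 library per genotype no test was run. Log2 ratios used a pseudocount of 1, and the size rule required a ratio of at least 1 in size and a value of at least 5 in the higher library. Its background was every protein-coding gene with at least 5 in either library. Alternatives were pseudocounts of 0.1 and 5, no minimum value, equal sums, equal medians, equal upper quartiles, removal of the GC and length trend by lowess (fraction 0.2, protein-coding genes with a mean of at least 1), members with a mean of at least 1, and, chosen after the data were seen, near-identical copies summed. Leaving out a library leaves no comparison and was not possible.

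Lengths, GC and coordinates came from GENCODE M21 (GRCm38), 1 transcript per gene, matched for 99.3% of protein-coding genes and all 71 members, 1 of them (Dnah7c) by symbol. Fragments behind a value were estimated from steps in the low values of 990 genes over 2500 nt. The mean distance from whole steps was 0.130, 0.149 and 0.120 steps in wild type, MiwiΔIns and MiwiR371W. SDs quoted from them cover counting error only, not animals, sorts or library preparation. Promoters were those of RefSeq GRCm38.p6, with bases in GENCODE exons left out of what is printed. Coding sequences were aligned with edlib 1.3.9.post1, exon overlaps found with bedtools 2.31.1, and the rest run in Python 3.11.15 with pandas 2.3.3, numpy 2.4.6 and statsmodels 0.14.6. The calls, trend removal and step search were checked on simulated data.

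Named members were those past the size rule, up to 3 of each role by mean value, and the 3 largest ratios in each direction per class and comparison among members with a mean of at least 1. From companion lists, members past the rule or the 2 highest by mean were named. Other members were named after their values were seen, to account for each role.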

Additional observations from a re-analysis of the deposited data

Results flagged for a closer look

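The 2 pseudogenes left out by the gene type carried signal above that of the wild-type library. Dynlt1-ps1 was at 67.0 in wild type, 83.7 with MiwiΔIns and 71.7 with MiwiR371W, well above Dynlt1c. Kif4-ps was at 4.87, 6.03 and 7.90, above its parent gene Kif4 at 1.04, 0.85 and 1.87. They drew attention as signal outside the comparisons, on single libraries. How reads were divided between parent genes and pseudogenes was not tested.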

How the results depend on the processing

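The axonemal median of MiwiΔIns against wild type was −0.053 with equal sums (0.05 as reported), where the median of all protein-coding genes was −0.075 (0.018 as reported). Against wild type 0 motor genes passed in MiwiR371W with a pseudocount of 5 and after removal of the GC and length trend (1 as reported). Between the mutants 1 passed with a pseudocount of 5 and with equal sums (2 as reported). The cytoplasmic median between the mutants (−0.31) was −0.43 and −0.15 with pseudocounts of 0.1 and 5, −0.20 with equal sums and −0.11 with the trend removed. The axonemal one (0.25) was 0.40 with equal sums and 0.12 with the trend removed. For these results the cause was not tested. All 12 medians and counts stayed within the tolerances (0.1 log2, or 1.5 times for a count) with equal medians and with equal upper quartiles, all 9 medians over members with a mean of at least 1, all 6 with near-identical copies summed, and all 3 counts with no minimum value. No call turned its direction. Among the 64 members with a mean of at least 1, between 49 and 64 kept their sign under the alternatives in MiwiΔIns, and between 59 and 64 in MiwiR371W, each against wild type. No paired analysis was possible because each genotype has 1 library. Depth limits members under a mean of 1 and also some above it, such as Dynlrb1 on an estimated 33, 40 and 20 fragments. The lack of a second library per genotype limits every difference.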
